A study of Mus musculus with 2 samples.

Results

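The regions described here were the strong peaks of open chromatin whose accessibility was higher after knockdown of Piezo2 in mouse cardiac fibroblasts. A peak was called strong when the mean of its 2 normalized read densities was at least 25, and raised when the siPiezo2 density plus 1, divided by the control density plus 1, was at least 1.5. Only the numbered chromosomes were used. The rule chose 771 raised strong peaks, 2.79% of the 27593 strong peaks, in a table of 63316 peaks. For comparison, 3282 strong peaks, 11.9%, were lower in siPiezo2 past the same fold. This split depends on the scaling of the 2 libraries. With the same 27593 peaks, 1245 were raised and 2386 lowered when the densities were set to the same total, 1667 and 1962 under the median of ratios, 1700 and 1927 under a trimmed mean, and 1310 and 2478 with the reads set to the same total. The raised peaks were chosen by the same 2 values that are described below, so their ratios are a description and no test was made on them.

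The study asked how Piezo2 acts on the chromatin of activated fibroblasts. Primary murine cardiac fibroblasts received either a scrambled siRNA (titled NC in the labels, called SCR here) or an siRNA against Piezo2 (siPiezo2), and both cultures were then given TGF-β at 5 ng/ml for 24 h. Chromatin was profiled by ATAC-seq with 1 library per condition and no untreated library. The text deposited for the series names a Tet3 knockout in place of an siRNA, and the methods describe another kit and starting material than the labels. These differences could not be settled, and the groups used here rest on the sample labels. With 1 library each, a difference between the libraries has no replicate check, and the effect of the siRNA cannot be told apart from differences between cultures or library preparations.

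ATAC-seq uses a transposase that cuts DNA where nucleosomes and other proteins leave it exposed, so that the reads pile up at promoters, enhancers and other open regions. Promoters of broadly expressed genes are open in most cell types, whereas enhancers in introns and between genes are opened by the factors that a cell type or a signal brings in. Piezo2 is a channel of the plasma membrane that opens when the membrane is stretched and lets cations, calcium among them, into the cell. TGF-β turns resting cardiac fibroblasts into myofibroblasts, which contract and lay down matrix, and stretch acts on the same cells through the actin cytoskeleton. An siRNA destroys messenger RNA, so accessibility does not check the knockdown, and the Piezo2 transcript was not measured in these libraries. Piezo2 itself held 3 strong peaks, of which none was raised and 2 were lowered. Of 16 genes that the study follows, such as Acta2, Lox, Postn, Srf and the TEAD genes, 13 held 41 strong peaks, of which 0 were raised, where 2.79% of all strong peaks would be about 1 peak, and 12 in 7 genes were lowered, where 11.9% would be about 5.

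The promoters of 6 genes at raised peaks are shown because the results below describe the peaks at these genes: housekeeping genes of the mitochondrial ribosome and of tRNA modification (Mrps31, Dus1l), a contractile gene (Cald1), an interferon response gene (Bst2), a cell cycle gene (Cdk4) and a ribosomal protein gene (Rps24). They were picked by hand and are not a sample of the raised promoters, being poorer in GC boxes. Each line runs from 250 bases before the start to 50 bases after it, 5′ to 3′ on the gene's strand, as RefSeq gives it for GRCm38.p6. Capitals mark the letters of 7 short motifs, searched on both strands, and neighbouring matches may overlap. The GC box (GGGCGG) is bound by Sp1 and its relatives, and the CCAAT box is bound by NF-Y. The ETS motif (CCGGAAG) is bound by ETS factors at many housekeeping starts. The cyclic AMP response element or CRE (TGACGTCA) is bound by CREB. The AP-1 motif (TGANTCA) is bound by Fos and Jun proteins. The TEAD core (GGAATG) is bound by the TEAD partners of YAP and TAZ. The E-box (CACGTG) is bound by Myc, USF and clock factors.
Mrps31: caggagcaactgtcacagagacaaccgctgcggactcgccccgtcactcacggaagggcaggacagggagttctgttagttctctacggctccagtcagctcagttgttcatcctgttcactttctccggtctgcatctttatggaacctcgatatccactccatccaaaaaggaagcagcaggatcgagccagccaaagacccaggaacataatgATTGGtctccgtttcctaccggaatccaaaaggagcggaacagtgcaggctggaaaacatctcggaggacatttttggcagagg
Dus1l: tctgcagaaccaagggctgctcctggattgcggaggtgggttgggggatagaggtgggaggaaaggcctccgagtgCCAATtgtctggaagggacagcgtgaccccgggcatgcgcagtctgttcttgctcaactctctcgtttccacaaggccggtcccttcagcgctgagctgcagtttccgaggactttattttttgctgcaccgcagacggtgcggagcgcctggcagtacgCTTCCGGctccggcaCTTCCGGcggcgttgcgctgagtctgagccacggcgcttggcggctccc
Cald1: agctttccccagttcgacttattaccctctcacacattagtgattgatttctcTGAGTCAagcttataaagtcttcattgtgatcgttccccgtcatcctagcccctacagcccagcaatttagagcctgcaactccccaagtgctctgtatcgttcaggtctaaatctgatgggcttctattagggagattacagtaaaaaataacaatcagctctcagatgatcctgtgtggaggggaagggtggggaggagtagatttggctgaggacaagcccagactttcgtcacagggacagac
Bst2: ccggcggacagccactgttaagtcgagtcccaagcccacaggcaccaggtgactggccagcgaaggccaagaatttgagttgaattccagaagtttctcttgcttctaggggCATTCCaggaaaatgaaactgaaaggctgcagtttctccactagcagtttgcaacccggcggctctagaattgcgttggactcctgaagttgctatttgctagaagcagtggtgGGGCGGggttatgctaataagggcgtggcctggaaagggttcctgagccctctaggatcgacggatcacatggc
Cdk4: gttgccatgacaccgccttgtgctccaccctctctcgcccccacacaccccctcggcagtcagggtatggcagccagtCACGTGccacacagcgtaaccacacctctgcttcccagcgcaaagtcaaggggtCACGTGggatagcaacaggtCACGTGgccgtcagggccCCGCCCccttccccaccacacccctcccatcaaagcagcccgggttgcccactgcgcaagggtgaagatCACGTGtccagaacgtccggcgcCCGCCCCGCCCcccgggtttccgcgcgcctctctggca
Rps24: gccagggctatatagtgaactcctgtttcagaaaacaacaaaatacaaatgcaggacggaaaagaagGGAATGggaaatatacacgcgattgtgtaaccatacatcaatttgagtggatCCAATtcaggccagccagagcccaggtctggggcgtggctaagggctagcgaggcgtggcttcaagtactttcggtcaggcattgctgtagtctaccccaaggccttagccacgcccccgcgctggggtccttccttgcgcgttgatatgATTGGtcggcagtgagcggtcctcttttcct

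The windows differed in make-up. The Cdk4 window held 3 GC boxes and 4 E-boxes in 67.0% GC, the Dus1l window held 2 ETS motifs and 1 CCAAT box in 62.7% GC, and the Cald1 window had 47.0% GC with a single AP-1 motif and none of the GC, CCAAT or ETS letters. The Mrps31 window held 1 CCAAT box and the Rps24 window 2 CCAAT boxes and 1 TEAD core, at 52.7% and 52.3% GC. The Bst2 window, at 53.7% GC, held 1 GC box and 1 TEAD core. Of the 152 raised peaks annotated to a promoter within 1 kb or a 5′ UTR, 75 could be matched by transcript to such a window, which gave 72 different windows. A GC box stood in 69.4% of the 72 windows, against 71.7% of the 4121 windows at all strong promoter peaks and 35.7% of all 32851 promoter windows in the RefSeq table. The same 3 shares were 43.1%, 44.6% and 37.4% for the CCAAT box, and 20.8%, 20.6% and 8.86% for the ETS motif. The AP-1 motif stood in 8.33% against 5.31% and 7.81%, the TEAD core in 9.72% against 11.9% and 14.7%, the E-box in 9.72% against 11.2% and 7.15%, and the CRE in 2.78% against 3.66% and 1.79%. The CArG box, the site of serum response factor, stood in 1 of the 72 windows (1.39%), against 1.48% at all strong promoter peaks. In the 133 windows at lowered promoter peaks, the shares were 60.9% for the GC box, 39.8% for the CCAAT box, 9.77% for the ETS motif, 4.51% for the AP-1 motif, 12.03% for the TEAD core, 7.52% for the E-box, 2.26% for the CRE and 5.26% for the CArG box. In letters and in GC content (median 61.7% against 62.0%), the promoters at raised peaks were thus close to those of strong promoter peaks as a whole. Matches of letters are a description of the windows and not binding sites.

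The raised peaks had ordinary mean densities, with a median of 34.8 against 35.1 over all strong peaks. By the rule their SCR values lie low and their siPiezo2 values high for that mean. The SCR density had a median of 25.7 (quartiles 21.2 and 34.6), and the siPiezo2 density a median of 44.2 (quartiles 36.2 and 58.8), where the medians over all strong peaks were 37.1 and 33.6. A density is the authors' normalized number of reads per kb in a window of 2000 bases around a peak. The log2 ratio, computed as log2 of siPiezo2 density plus 1 over SCR density plus 1, had a median of 0.70 over the raised peaks (quartiles 0.63 and 0.83, range 0.59 to 2.11), and a median of -0.09 over all strong peaks. Most raised peaks therefore lay close above the fold that defined them, and 75 of them were past a fold of 2. Beside the fold threshold, the peaks of Rdh8, 1700025H01Rik and Mob4 lay just inside (each 1.5001) and those of Cdc42ep4 (1.4967), Ciapin1 (1.4973) and Ddx42 (1.4989) just outside. Beside the density threshold, the peaks of Sncb, Sorbs2 and Psma1 lay just inside (25.03, 25.05 and 25.05) and those of Ptp4a3, Meis1 and Preb just outside (each 24.93).

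**Figure D1:**
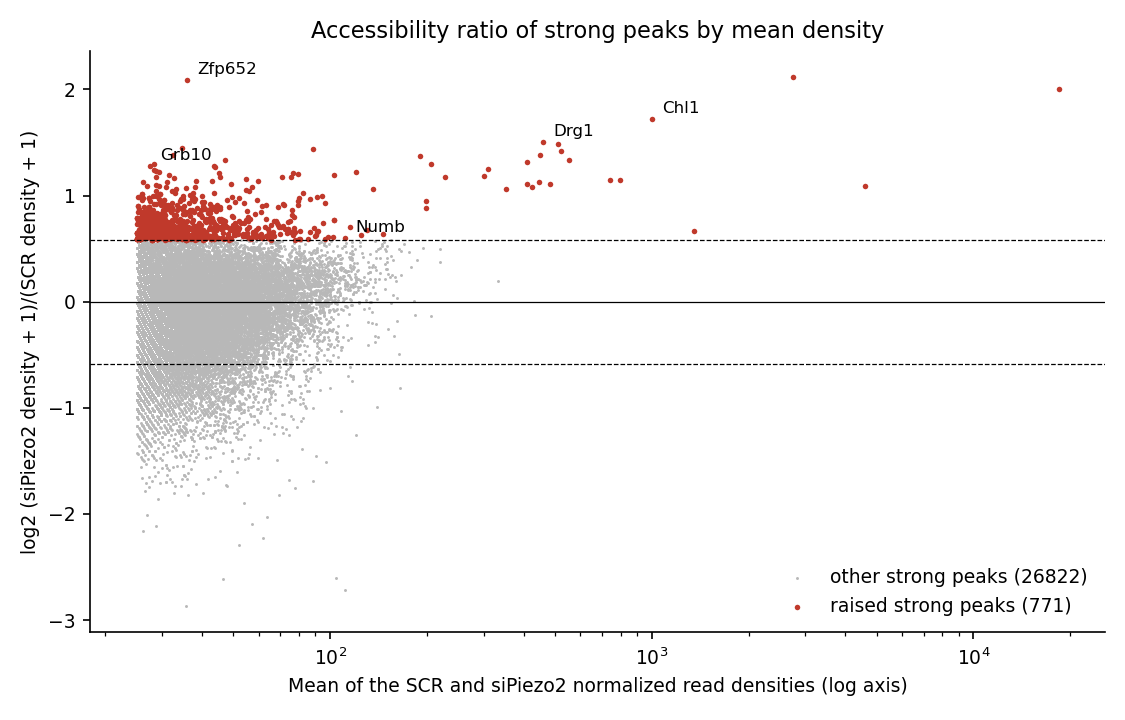
Each point is 1 of the 27593 strong peaks, with the mean of its SCR and siPiezo2 normalized densities on a log axis and its log2 ratio on the vertical axis. Dashed lines mark a fold of 1.5 in either direction. The 771 raised peaks lie above the upper line, most of them below a mean density of 100, and all 17 peaks at or above 400 are among them.

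Whole reads could be recovered from the densities, which gives the depth behind each value. The SCR library held 4615335 reads over the windows of all peaks and the siPiezo2 library 2754046, or 0.597 times as many, with medians of 58 and 36 reads per window of 2000 bases. A raised peak had a median of 63 SCR reads (range 31 to 31118) and 70 siPiezo2 reads (range 49 to 27890). In 566 of the 771 the siPiezo2 window held more reads than the SCR window, a count that follows in large part from the choice of peaks by the same densities. The 95% exact binomial (Clopper-Pearson) interval of the log2 ratio came from the reads, without the 1 that the printed ratio adds to each density. It lay above 0 for all 771, and for 1636 of the 27593 strong peaks. The rule used the same values, so this was nearly fixed by the choice of peaks. The median distance from its middle to its bounds was 0.51, and it covers counting error only. Windows of neighbouring peaks can share reads, and 658 of the 771 raised peaks had a window clear of the peaks kept before it when all peaks were taken from the lowest position up.

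Strong peaks far from genes were raised more often than promoters. Of the strong peaks between genes (distal intergenic), 234 of 6069 (3.86%) were raised, as were 199 of 6009 (3.31%) in introns after the first and 113 of 4205 (2.69%) in first introns. Among promoters within 1 kb of the transcription start site (TSS) the count was 115 of 6757 (1.70%), and among 5′ UTR peaks 37 of 1924 (1.92%). Promoters beyond 1 kb had 19 of 609 (3.12%), a share above that of first introns. As shares of the raised peaks, 30.4% were distal intergenic, against 21.99% of all strong peaks, and 14.9% were promoters within 1 kb, against 24.5%. By distance alone, 25.4% of raised peaks lay within 1 kb of a TSS, against 38.7% of all strong peaks and 15.9% of the lowered ones. At a fold of 2 the share was 14.7% of raised and 9.08% of lowered peaks, at a density limit of 15 it was 17.0%, 12.5% and 25.42% of raised, lowered and all peaks, and at a limit of 50 it was 35.7%, 17.9% and 55.6%. The median distance to the nearest TSS was 7617 bases for raised, 4063 for all and 11984.5 for lowered strong peaks. At each of these settings the share near a TSS was lower for raised peaks than for all peaks, and lower again for lowered peaks.

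**Figure D2:**
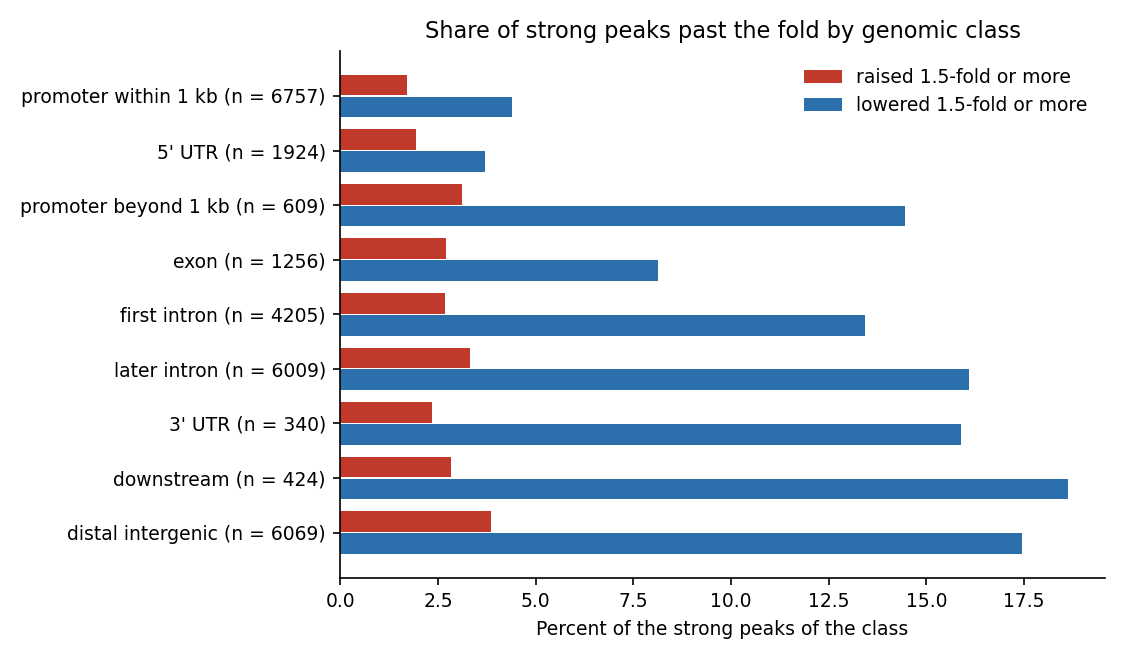
For each annotated class of strong peak, bars give the percent of its peaks that were raised (upper bar) or lowered (lower bar) past a fold of 1.5 in siPiezo2, with the number of strong peaks in brackets. The raised share runs from 1.70% at promoters within 1 kb to 3.86% between genes, and the lowered share is the larger in every class shown.

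The authors called each peak in SCR, in siPiezo2 or in both. Of the raised peaks, 626 (81.2%) had been called in both libraries, 83 (10.8%) in siPiezo2 alone and 62 (8.04%) in SCR alone, where the shares of all strong peaks were 63.1%, 1.23% and 35.7%. The share called in both depends on the density limit of the rule, and was 52.8% with a limit of 15. Of the 340 strong peaks called in siPiezo2 alone, 24.4% were raised, against 3.60% of those called in both and 0.63% of those called in SCR alone. The width of raised peaks (median 365 bases) was near that of all strong peaks (381). By chromosome, the raised share ran from 1.68% on chromosome 13 to 3.86% on chromosome 17.

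The highest ratio within a gene was at Zfp652, which encodes a zinc finger repressor of transcription. Its peak in exon 2 (chr11:95640402-95641032; positions here and below are 1-based as in the deposited table, whose gene coordinates are those of GRCm39) had a density of 13.1 in SCR and 58.8 in siPiezo2, from 31 and 95 reads. The log2 ratio was 2.09 (95% interval 1.60 to 2.83), and this was the lowest SCR density of any raised peak. The site had been called in siPiezo2 alone. The 3 other strong peaks of Zfp652, all in introns, had log2 ratios of 0.49, 0.09 and 0.02, so the exon peak was the only one of the gene's 4 strong peaks past the fold.

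Outside the dense groups described below, and below a mean density of 200, the intronic peaks with the highest ratios were in Grb10, Tacc2, Srpk2 and Gse1. Grb10, an imprinted adaptor that binds insulin and IGF1 receptors, had 15.7 in SCR and 39.4 in siPiezo2 in intron 4 (chr11:11915808-11916129, log2 1.28, interval 0.74 to 1.97, 37 and 64 reads), and its other strong peak was at 0.21. Tacc2, a centrosomal coiled-coil protein, had 26.8 and 63.4 (log2 1.21). Srpk2, a kinase of splicing factors, had 17.2 and 40.2 (log2 1.18). Each of these 3 genes had no lowered strong peak. Gse1, a subunit of a histone deacetylase complex, had 19.9 and 45.6 (log2 1.16) in a peak called in siPiezo2 alone. Il15, a cytokine that sustains natural killer and memory T cells, had 19.1 and 43.0 in its first intron (log2 1.13, interval 0.62 to 1.75), while 2 peaks of its 5′ UTR were at -0.36 and -0.43. The intron and the start of Il15 thus lay on opposite sides of 0, but the intervals of both 5′ UTR peaks spanned 0.

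Among distal intergenic peaks outside dense groups and below a mean density of 200, the highest ratios were at chr11:112899363-112899786 (nearest TSS that of 2610035D17Rik, 18.2 in SCR and 51.3 in siPiezo2, log2 1.44, interval 0.96 to 2.07) and at chr11:83621880-83622288 (nearest TSS that of Wfdc21, 17.5 and 47.3, log2 1.38, interval 0.89 to 2.03). A distal peak 4153 bases before the TSS of Tmem125 had 106 and 275 (log2 1.37). A peak near Fam171a1 followed (16.0 and 40.7, log2 1.29). The peak near AC166110.4 (118 and 293, log2 1.30) had a mean density above 200. One near A330069K06Rik, at 16.4 and 40.1 (log2 1.24), had been called in siPiezo2 alone. The nearest TSS names a place and does not say which gene a distal site acts on.

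At promoters within 1 kb and outside dense groups, the highest ratio was at Nfe2, an erythroid and megakaryocyte factor, where a peak 86 bases before the TSS (chr15:103166729-103167103) had 16.1 in SCR and 36.3 in siPiezo2 (log2 1.12, interval 0.57 to 1.81). Capzb, the β subunit of the protein that caps actin filaments, had 28.4 and 58.9 at the promoter of an inner transcript (log2 1.03), while a promoter peak 558 bases before another start was at 0.13. Mrps31, a protein of the mitochondrial ribosome whose promoter is printed above, had 18.4 and 37.8 (log2 0.997, interval 0.46 to 1.64). Pttg1ip had 16.9 and 34.5 (log2 0.98) and Dus1l, a tRNA dihydrouridine synthase, 19.6 and 37.9 (log2 0.92, interval 0.38 to 1.54). Both had been called in siPiezo2 alone. The highest promoter ratios of all, at Gm56794 (46.0 and 105, log2 1.17) and 4931408C20Rik (33.7 and 76.1, log2 1.15), fell in dense groups described below, as did that of Hjurp (34.9 and 69.5, log2 0.97). At 5′ UTRs the leading genes were Enho (23.0 and 45.3, log2 0.95), which encodes a secreted peptide, and Cipc (49.1 and 94.0, log2 0.92), which encodes a protein that binds CLOCK.

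Cald1 was the 1 gene with a raised strong peak among the 21 myofibroblast and contractile genes that held a strong peak (4.76%, against 471 of 11477 genes or 4.10% overall). It encodes caldesmon, which binds actin and tropomyosin and holds back actomyosin. Its raised peaks stood at an inner start site: 42.5 in SCR and 80.4 in siPiezo2 at 650 bases before that TSS (chr6:34685625-34685830, log2 0.90, interval 0.54 to 1.31), and 43.5 and 82.5 at the TSS itself (chr6:34686254-34686611, log2 0.91, interval 0.55 to 1.30), and another stood in an intron (20.5 and 34.8, log2 0.74). The windows of the first 2 overlap, so they are not separate measurements. At the upstream start site the peak went the other way, with 113 in SCR and 82.6 in siPiezo2 (log2 -0.45, interval -0.77 to -0.15). Of the 12 other strong peaks of Cald1, 2 in the first intron were lowered past the fold and the median log2 ratio was -0.38. Over the list of contractile genes, 15 of 21 genes held a lowered strong peak (71.4%, against 14.4% of all genes) and the median log2 ratio of their 91 strong peaks was -0.28, against -0.08 over the strong peaks of all genes. Counted by peak, 3 of the 91 were raised and 29 lowered, against 537 and 2223 of 21523 over all genes.

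Extracellular matrix genes had raised peaks in 4 of 25 genes (16.0%, against 4.10% of all genes) and lowered ones in 14 (56.0%, against 14.4%), and the median log2 ratio of their strong peaks was -0.29, against -0.08. These genes hold many strong peaks each, and counted by peak 5 of 116 were raised, against 537 of 21523 over all genes, and 31 were lowered, against 2223. Loxl2, a lysyl oxidase that crosslinks collagen, had 50.4 in SCR and 85.8 in siPiezo2 in an intron (log2 0.76, interval 0.41 to 1.13) and 36.3 and 59.6 in its 3′ UTR (log2 0.70), and it had no other strong peak. The windows of these Loxl2 peaks overlap, so they are not separate measurements. Col4a2, a chain of the basement membrane collagen, had 29.98 and 56.4 in an intron (chr8:11390332-11390745, log2 0.89, interval 0.45 to 1.38), whereas its 14 other strong peaks lay between -0.47 and 0.30. Its partner Col4a1 had 42.8 and 66.1 in an intron (log2 0.61), and 1 of its peaks was lowered (-0.62). Dcn, the proteoglycan decorin that binds collagen and TGF-β, had 28.8 and 44.4 at its promoter (log2 0.61, interval 0.13 to 1.13).

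In the pathway annotation of the deposited table, 4 of 60 TGF-β pathway genes (6.67%, against 4.10% of all genes) had a raised strong peak and 15 (25%, against 14.4%) a lowered one. Ltbp1, which stores latent TGF-β in the matrix, had 39.0 in SCR and 71.2 in siPiezo2 in an intron (chr17:75417457-75417771, log2 0.85, interval 0.47 to 1.28) and 39.5 and 66.5 in an overlapping window, and 2 of its 5 other strong peaks were lowered (-0.61 and -0.67). Ltbp3, of the same family but not counted among the 4 pathway genes, had 33.4 and 57.3 at a promoter (log2 0.76). The 4 were Ltbp1, Smad3, Smurf2 and Dcn, the last described above. Smad3, the factor that enters the nucleus when the TGF-β receptor signals, had 21.2 and 39.3 at an inner promoter (chr9:63574418-63574711, log2 0.86, interval 0.34 to 1.46), while its upstream promoter was at -0.06 and none of its other 11 strong peaks passed the fold. Smurf2, a ubiquitin ligase that removes receptors and SMADs, had 23.2 and 36.9 at its promoter (log2 0.65, interval 0.12 to 1.23).

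In the Notch pathway, 5 of 43 genes had a raised strong peak (11.6%, against 4.10% of all genes) and 8 a lowered one (18.6%, against 14.4%). Notch signalling runs between touching cells, with a receptor whose released tail joins the DNA-binding protein RBPJ. The receptor gene Notch2 had 37.4 in SCR and 60.3 in siPiezo2 at 580 bases inside its first intron (log2 0.68, interval 0.26 to 1.12), next to a promoter peak at 0.55. Farther along, 3 strong peaks of Notch2 were lowered, with log2 ratios of -1.22, -1.14 and -0.87. Rbpj had 41.2 and 71.4 in its first intron (log2 0.78, interval 0.39 to 1.19), and its 5 other strong peaks lay between 0.11 and 0.55. Numb, an inhibitor of Notch, had 88.4 and 135 at its promoter (log2 0.60, interval 0.32 to 0.88) from 243 and 194 reads, which made it one of the better covered promoters. Dtx4, a ubiquitin ligase of the pathway, had 21.9 and 39.4 (log2 0.82) and Atxn1, a corepressor partner, 20.1 and 36.0 (log2 0.81), both in introns. The Notch genes were singled out after the values of all pathways were known, so their share describes these genes only. Pathway shares were counted by gene and not by peak, and a gene with more strong peaks has more that can be raised.

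Over the MAPK pathway, 8 of 189 genes (4.23%) had a raised strong peak, which is near the 4.10% of all genes. The receptor genes Egfr and Igf1r and the phosphatase genes Dusp10 and Dusp1 are described as single genes, chosen after their values were seen. Egfr had 38.9 in SCR and 61.8 in siPiezo2 in its first intron (log2 0.66, interval 0.25 to 1.09) with its promoter at -0.05. Igf1r had 26.5 and 41.7 in an intron (log2 0.63) while 3 of its other strong peaks were lowered, down to -1.10. Dusp10, a phosphatase of p38 and JNK, had 22.9 and 46.6 in an intron (chr1:183774047-183774482, log2 0.99, interval 0.51 to 1.56) and 29.4 and 47.8 in another (log2 0.68), and its promoter was at 0.40 (interval 0.09 to 0.72). All 4 strong peaks of Dusp10 were above 0. Dusp1, another such phosphatase, had 26.1 and 44.3 in a raised peak (log2 0.74) and its 7 other strong peaks were all above 0 as well (0.03 to 0.54).

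**Figure D3:**
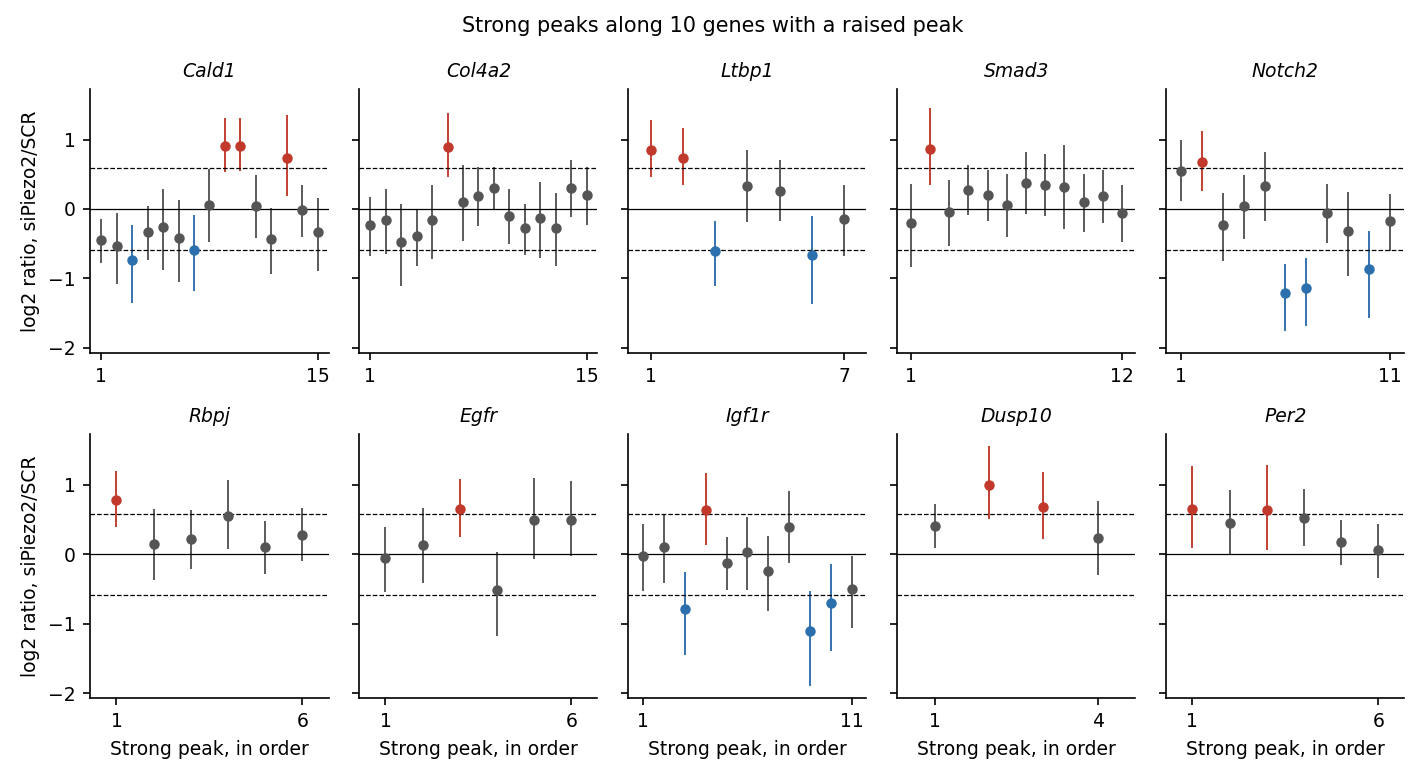
Each panel gives the strong peaks of 1 gene in chromosomal order, with the log2 ratio of siPiezo2 to SCR and its 95% exact binomial interval, which covers counting error only. Dashed lines mark a fold of 1.5. Raised peaks (red) and lowered peaks (blue) stand in the same gene in Cald1, Ltbp1, Notch2 and Igf1r, while all strong peaks of Rbpj, Dusp10 and Per2 lie above 0.

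Most of the remaining lists are small, and at the 4.10% of all genes these would hold fewer than 1 gene with a raised strong peak, so their counts describe single genes. None of 17 resting fibroblast genes, 21 cytokine and NF-κB genes, 15 AP-1 and MAF genes and 18 oxidative and amino acid stress genes with a strong peak held a raised one. Lowered strong peaks stood in 41.2%, 19.0%, 33.3% and 0% of the genes of these lists, in that order, against 14.4% of all genes. Interferon response genes had 1 of 14 (7.14%, and 1 with a lowered peak), the promoter of Bst2, which tethers budding viruses (26.9 in SCR and 42.4 in siPiezo2, log2 0.64). Cell cycle and p53 genes had 1 of 22, the promoter of Cdk4, the kinase of cyclin D (47.8 and 73.3, log2 0.61, interval 0.23 to 0.996). Cytosolic ribosomal protein genes had 2 of 57, at the promoter of Rps24 (24.7 and 37.7, log2 0.59) and the 5′ UTR of Rps15a (22.8 and 35.6, log2 0.62). Homeobox and T-box genes had 2 of 14 (14.3%): Prrx1, a mesenchymal factor, with 20.1 and 36.0 in its first intron (log2 0.81, interval 0.27 to 1.43), and Meis1 with 29.5 and 45.2 (log2 0.60). Genes of C2H2 zinc finger proteins had 7 of 220 (3.18%): Zfp652, Zfp521, Zfp532, Zfp236, Zfp992, Zfp276 and Zfp560. Regulation of the actin cytoskeleton had 2 of 139 genes (1.44%, Egfr and Itga10) with a raised strong peak and 27.3% with a lowered one.

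Cell type markers were checked beside these values. Of 10 fibroblast markers, 9 held a strong peak and 2 of these (22.2%, against 4.10% of all genes) a raised one: Ddr2, a collagen receptor (18.9 in SCR and 35.3 in siPiezo2, log2 0.87), and Gata4, at its 5′ UTR (44.3 and 67.6, log2 0.60). Another held a lowered peak, the median log2 ratio of the 28 strong fibroblast peaks was -0.14, and the densities of these peaks added up to 1427 in SCR and 1320 in siPiezo2. Of 9 endothelial markers, 4 held a strong peak and 2 of these (50%, against 4.10%) a raised one. Pecam1 had 29.1 and 44.5 (log2 0.59) and Cdh5 47.7 and 78.0 (log2 0.70), both in introns, and the summed density of the 8 strong endothelial peaks was 494 in SCR and 532 in siPiezo2. Markers of macrophages, cardiomyocytes, smooth muscle and pericytes, and mesothelium held strong peaks in 2 genes each and no raised one, and 1 mesothelial gene held a lowered one. Their summed densities were 307 in SCR and 281 in siPiezo2 for macrophages, 113 and 120.1 for cardiomyocytes, 479 and 397 for smooth muscle and pericytes, and 193 and 189 for mesothelium. Schwann cell markers held no peak. The part of other cell types in the raised peaks was not tested.

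Other genes with more than 1 raised peak were spread over many functions. Outside the dense groups, 31 genes held at least 2 raised strong peaks, some of them, such as Loxl2 and Ltbp1, in overlapping windows. The highest ratios among these were in Galk2, a kinase of N-acetylgalactosamine (30.1 in SCR and 51.8 in siPiezo2, and 35.2 and 74.3, log2 0.76 and 1.06), and Ahnak2 (52.7 and 81.2, and 36.3 and 75.7, log2 0.61 and 1.04). Abtb2 had 25.6 and 50.1 (log2 0.94) and 23.5 and 37.6 (log2 0.65). Carhsp1 had 47.7 and 89.7, and 53.7 and 98.6, in overlapping windows (log2 0.90 and 0.86), and Bicd2, an adaptor of dynein, 30.1 and 52.4, and 18.9 and 35.9 (log2 0.78 and 0.89). Per2, a repressor of the circadian clock, had 2 raised intronic peaks of log2 0.65 each (20.2 and 32.2, and 19.4 and 30.9), and its 4 other strong peaks lay between 0.06 and 0.52. Further genes with 2 raised peaks were Syne2, which ties the nucleus to actin (log2 0.67 and 0.68), Synj2 (0.76 and 0.80), Sh3pxd2b, a podosome scaffold (0.72 and 0.62), and Htra1, a secreted protease (0.69 and 0.59). Pakap was the only one of the 31 with 3 raised peaks (log2 0.59, 0.68 and 0.59), and 7 of its 22 other strong peaks were lowered, with a median of -0.21. The remaining genes were Gm50334, Gm49504, Gm57214, 4930513D17Rik, Snx33, Pam, Manba, Ppp1r7, Ephx1, Auts2, Fndc3b, Epb41l2, Rab28, Ywhag, Pola2, Igf2bp3, Eif1 and, described above, Loxl2, Ltbp1 and Dusp10, with log2 ratios between 0.59 and 0.99.

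The other strong peaks of the same genes and the neighbours were described next. These are by definition strong peaks that were not raised, so they are set beside all strong peaks that were not raised, which had a median log2 ratio of -0.11 with 38.0% above 0. Of the 471 genes with a raised strong peak, 302 had other strong peaks, and in 162 of these the median of the others was below 0. Those 1222 other peaks were centred at a log2 ratio of -0.05 (median), where strong peaks of genes with no raised peak had -0.09. A lowered strong peak was also held by 69 of the 471 genes, a share near the 14.4% of all genes with a strong peak. Neighbours were taken for the 645 raised peaks outside the dense groups described below, and not for the 126 inside them. The nearest strong peak that was not raised, where it lay 2 to 10 kb away, had a median log2 ratio of 0.00 (quartiles -0.26 and 0.23) and was above 0 for 136 of 272 raised peaks. At 10 to 50 kb the median was -0.04 with 45.6% above 0, and at 50 to 200 kb it was -0.05 with 44.4% above 0. For the 20 raised peaks whose nearest such neighbour lay beyond 200 kb the median was -0.28, with 4 above 0.

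Some raised peaks stood close together. When runs of at least 3 raised peaks with gaps of at most 100 kb were taken as dense groups, 33 groups held 126 raised peaks (16.3%), and their spans held 206 strong peaks in all. With peaks whose windows do not overlap, the share was 9.88%, so many grouped peaks share reads. It was 30.7% at a fold of 2 and 42.2% with gaps of up to 1 Mb. The largest lay at Sfi1, Drg1 and Gm12735 (chr11:3134310-3149976), where 8 of 8 strong peaks were raised, in 4 separate windows. Their SCR densities were 140 to 283 and their siPiezo2 densities 316 to 759, with log2 ratios of 1.17 to 1.51 and 5450 and 5990 reads in sum. At 2700054A10Rik (chr17:13770633-13875474) 7 of 7 were raised in 4 separate windows (log2 0.89 to 1.22), and at Hjurp and Trpm8 (chr1:88190033-88237579) 6 of 6 in 5 (log2 0.76 to 1.33). Hjurp places the centromeric histone, and its peaks ran from 26.4 to 75.7 in SCR and from 68.0 to 129 in siPiezo2. Groups of 4 or 5 in which every strong peak was raised lay at Sp3os (5 of 5, in 3 separate windows), Gm48099 (5 of 5, in 2), 4931408C20Rik (4 of 4, all in 1), 9230019H11Rik (4 of 4, in 3) and Gm29682 with Cdh5 (4 of 4, in 3).

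**Figure D4:**
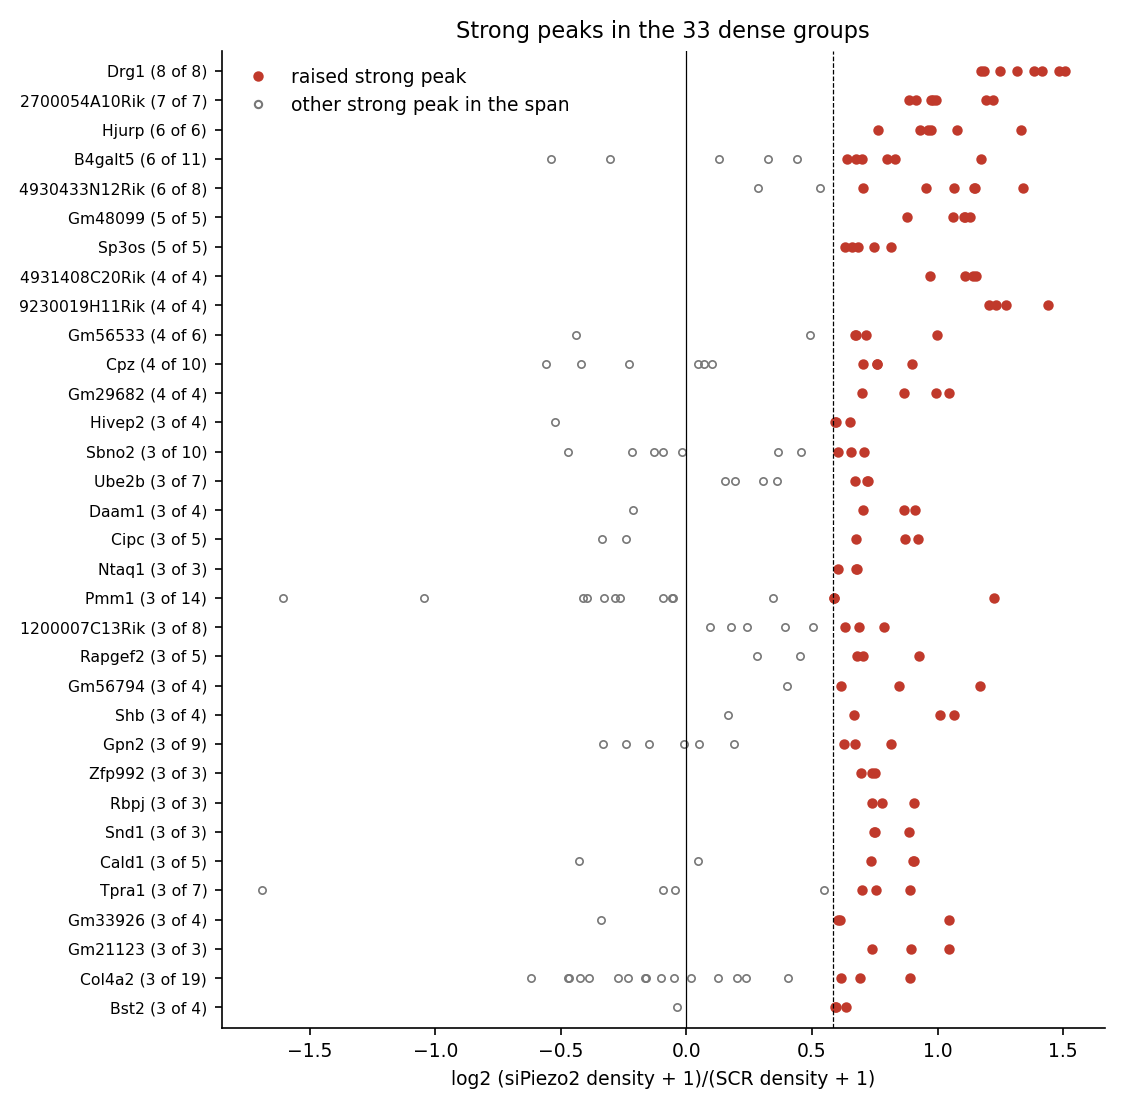
Each row is a dense group, named by the gene nearest to or holding its highest ratio, with the number of raised peaks of all strong peaks in its span. Filled points are raised peaks and open points other strong peaks, placed by log2 ratio, with a dashed line at a fold of 1.5. In groups such as Drg1, Hjurp and Snd1 no open point appears, whereas Pmm1, Col4a2 and Tpra1 hold open points below 0.

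Smaller groups were named by a protein-coding gene that held their raised peaks or had the nearest TSS. They included Rbpj (3 of 3, log2 0.74 to 0.91, in 2 separate windows), Snd1 (3 of 3, log2 0.75 to 0.89) and Ntaq1 with Fbxo32 (3 of 3). At Rbpj, only the intronic peak described above was assigned to the gene, and the other raised peaks of the group were not. Further groups lay at Shb, an adaptor of receptor kinases (3 of 4, log2 0.67 to 1.07), Rapgef2 (3 of 5) and Hivep2 (3 of 4). Others were at Daam1, a formin that builds actin filaments (3 of 4), and Mef2a, a factor of muscle genes (3 of 4 with Gm33926). In other spans most strong peaks were not raised: 3 of 19 at Col4a1 and Col4a2, 3 of 14 at Pmm1, 4 of 10 at Cpz and Acox3 and 3 of 10 at Sbno2. The same held at Gpn2 with Arid1a (3 of 9), 1200007C13Rik (3 of 8), Ube2b (3 of 7) and Tpra1 (3 of 7). At B4galt5 6 of 11 were raised. The remaining groups were at Gm56533 (4 of 6), Cipc (3 of 5), Gm56794 (3 of 4), Zfp992 (3 of 3), Gm21123 (3 of 3) and Bst2 with Gtpbp3 (3 of 4). The spans thus ran from stretches raised throughout to raised peaks scattered among others.

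The starts of the assembled chromosomes and the densest windows stood out. Of the 237 strong peaks that start below 4 Mb, where the assemblies begin next to the centromere, 34 (14.3%) were raised, against 2.69% of those beyond. They include the Sfi1 group and the groups at chr9:2999990-3032766 (6 of 8), chr10:3059941-3066772 (4 of 4) and chr14:3050767-3053616 (5 of 5). With the reads set to the same total in both libraries, 3 of the 6 raised peaks of the chr9 group and 3 of the 5 of the chr14 group kept the fold, as did all 8 of the Sfi1 group and all 4 of the chr10 group. On that scale, 36 of the 237 peaks below 4 Mb were past the fold, against 1274 of the 27356 from 4 Mb on. Among strong peaks of mean density 200 or more, 22 of 26 were raised, and at 400 or more 17 of 17, against 2.72% of the 22157 peaks between 25 and 50. With the reads at the same total, 11 of those 17 and 1188 of those 22157 were past the fold. The 22 raised peaks of density 200 or more held 65089 SCR and 57009 siPiezo2 reads, and 53.3% of all SCR reads of the raised peaks. The densest was at chr2:98496544-98497740 (7364 in SCR and 29467 in siPiezo2, log2 2.0005), with a neighbour at chr2:98492629-98493233 (1028 and 4458, log2 2.11), the highest ratio of all. A peak in intron 3 of Chl1 (chr6:103626007-103626347), a neural cell adhesion gene, had 466 and 1535 (log2 1.72) and was the gene's only strong peak. The repeat content of these windows and the mapping of their reads were not tested.

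In these dense windows the ratio depended on how the densities had been scaled. The deposited densities carry a correction that evens out depth and grows with density. On the log2 scale it added a median of 0.63 to the ratio of raw reads at raised peaks, and 2.16 in the densest window. With the recovered reads set to the same total in both libraries, 725 of the 771 raised peaks kept a fold of 1.5, and the median log2 ratio of the 771 was 0.81. Of the 46 that did not, 6 had a mean density of 200 or more. The chr2:98496544-98497740 peak then had a log2 ratio of 0.59 (31118 and 27890 reads), Chl1 1.02 and the Drg1 peak 0.997. The 2 peaks nearest to the TSS of Esp38 turned direction. At chr17:40154106-40157586 the densities were 2940 and 6248 (log2 1.09) but the reads 11160 and 6583 (log2 -0.017), and at chr17:40158984-40159677 the densities were 1044 and 1659 (log2 0.67) and the reads 3574 and 1936 (log2 -0.14). These were the only raised peaks below 0 on that scale. Zfp652, with few reads, had 2.29 on it.

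**Figure D5:**
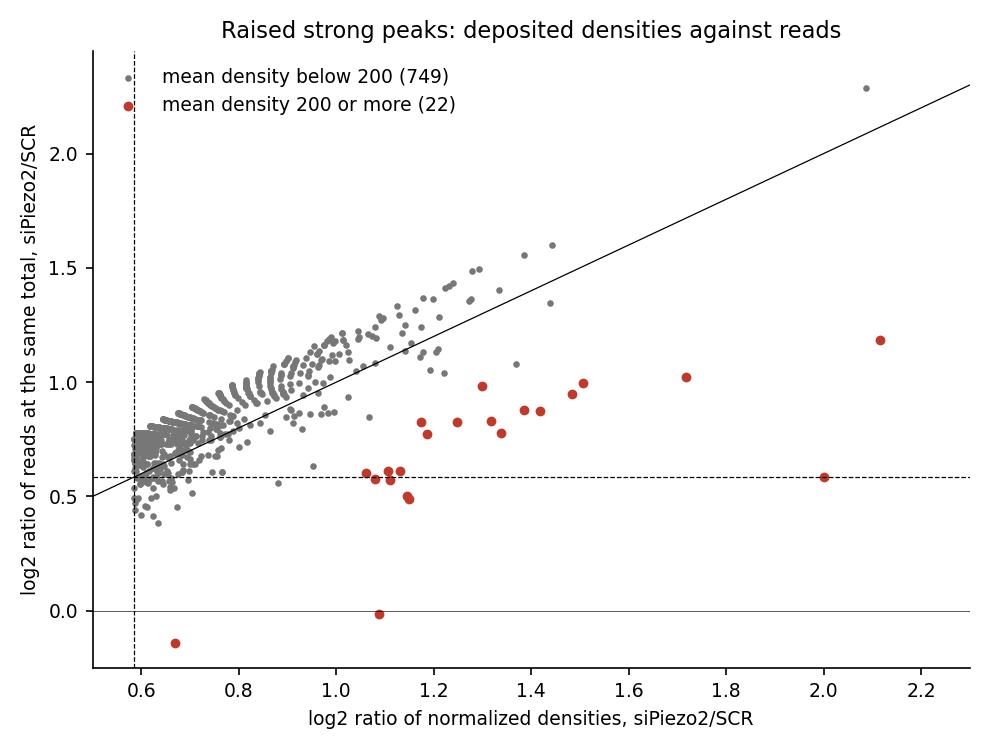
Each point is 1 of the 771 raised peaks, with the log2 ratio of the deposited densities on the horizontal axis and the log2 ratio of recovered reads at the same total on the vertical axis, and the solid line marks equality. Most peaks of mean density below 200 lie near or above the line, and the 22 denser peaks lie below it, 2 of them below 0.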

How the data were processed

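The members and gene lists were chosen with earlier results of these data known. Chromatin accessibility had been measured by ATAC-seq in 1 SCR and 1 siPiezo2 library of TGF-β treated mouse cardiac fibroblasts, and the submitters' processing notes name BWA 0.7.12 and mm10. The gene coordinates of the table are those of GRCm39, so no sequence was read by position. The deposited signal values are the authors' normalized read densities per peak. The values follow a linear fit of log ratio on mean log signal over the peaks called in both libraries, which was read from the values. The columns of log fold change and p-value hold the authors' own comparison and were not used.

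From the 2 densities, reads per window of 2000 bases were recovered (whole for 100% of 63316 peaks, to within 0.05 reads or 0.0001 of the value), with 1 read added per window as the values imply, and the slope of the fit was -0.17. The recovery was tested on simulated data for this pair of libraries (63316 peaks, 100% exact). Ratios used a pseudocount of 1. Intervals are 95% exact binomial intervals of the reads, moved by the correction that the densities of each peak carry and computed without the pseudocount. PCR duplicates are not separate molecules, so the intervals cover counting error only.

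Peaks were named by rule: the 10 highest ratios in all, at promoters, between genes and in introns, the 5 densest, genes with 2 or more raised peaks outside dense groups, dense groups, list genes and threshold neighbours. Other genes were named for their pathway after the values were seen. Python 3.11.15, numpy 2.4.6, pandas 2.3.3 and scipy 1.17.1 were used. Promoter windows were matched by transcript within GRCm38, at most 50 bases from the RefSeq start. Other scalings, folds, density limits and windows were tried.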

Additional observations from a re-analysis of the deposited data

How the results depend on the processing

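No paired analysis was possible because each condition had 1 library. A pseudocount of 0.1, the median of ratios, the same total of densities and the trimmed mean move the ratio of every raised peak up, so that none could fall below the fold and their keeping it shows no stability. Under recovered reads at the same total 725 of 771 kept it. When the peaks were chosen again, 1873 were raised under the median of ratios, 1349 under the same total, 1911 under the trimmed mean and 2734 under recovered reads (where 40570 peaks passed the density limit, and 1310 of the original 27593 were raised), and the raised share of peaks past the fold in either direction went from 19.0% to 46.9%, 34.9%, 47.8% and 45.3%. The median of all strong peaks, -0.09 as deposited, was 0.04, -0.01, 0.04 and -0.03 (log2). A fold of 2 left 75 peaks, and density limits of 15 and 50 gave 1707 and 168. The share within 1 kb of a TSS was 14.7% at a fold of 2, 17.0% and 35.7% at densities of 15 and 50, and 35.7% when 3 kb was allowed. The share in dense groups was 30.7%, 11.95% and 22.02% at those settings, 9.88% with windows that do not overlap and 42.2% with gaps of 1 Mb, and the share called in both libraries was 72.0%, 52.8% and 88.1%. Only the 2 Esp38 peaks reversed, to -0.017 and -0.14 under recovered reads, and the cause was not tested. Leaving out the dense groups or the peaks of density 200 or more, chosen after seeing the data, left 645 and 749 peaks. Windows with few reads limit single ratios, and no setting replaces a second library.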
